A study of Mus musculus with 14 samples.

Results

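The comparison set cultures of mouse bone marrow cells transformed with the MLL-AF9 fusion gene on a vector with a puromycin resistance gene (puro) against cultures transformed with the same fusion on a vector with a neomycin resistance gene (neo). Of 52550 genes in the count table, the 16503 with at least 10 counts in at least 3 of the 6 cultures were analysed. The series holds 14 samples, of which these 6 cultures (replicates 1 to 3 of each vector) were used, and 4 wild-type (WT) samples of bone marrow enriched for stem and progenitor cells (HSPCs) served only to give a level. The study used MLL-AF9 cells of both vectors as a single model of acute myeloid leukemia, so the comparison asks how far cultures of the 2 vectors differed.

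All 6 cultures started from HSPC-enriched bone marrow of WT C57BL/6 mice aged 8 to 20 weeks. The cells were kept overnight in medium with SCF, GM-CSF, IL-6 and IL-3. For neo cultures they were then transduced with pMSCV-MLL-AF9-neo and selected with neomycin at 800 µg per mL, and for puro cultures with pMSCV-MLL-AF9-puro and selected with puromycin. Before lysis, all were replated repeatedly in semi-solid medium. The study's methods state that after replating MLL-AF9 cells were expanded further in liquid medium with serum and the same cytokines. The vector and the selection drug therefore changed together and cannot be told apart, and no culture with an empty vector is among the 14 samples. The labels do not say whether the 3 cultures of a vector came from separate transductions or mice, so p-values measure only the spread between these samples, which may be technical.

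MLL-AF9 joins the DNA-binding part of the histone methyltransferase MLL (KMT2A) to AF9 (MLLT3), which brings the transcription elongation machinery and the methyltransferase DOT1L to the target genes. The fusion keeps HOXA genes, Meis1 and related progenitor genes active, and bone marrow progenitors that carry it replate without limit in culture. Transformed cells resemble granulocyte and monocyte progenitors and can hold more or less mature cells side by side.

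Judged by the spread within pairs, the libraries did not fall into a neo and a puro group. Total counts were 35629341 to 43407331. Levels are given in CPM, the count scaled to the size of its library. By total counts alone, 3 counts, taken as the smallest level that could be seen, were 0.0691 to 0.0842 CPM. Levels of genes are scaled with TMM factors as well, so they compare with these floors only roughly. Such floors cover counting error only, because reads were not tagged by molecule. Puro 1 and puro 3 were nearly alike, with a correlation of log2 CPM across genes of 0.994, which is a description, as genes are not independent replicates. Their biological coefficient of variation, the spread between libraries beyond counting error, was 0.0489, and 321 genes differed between them by at least 2-fold. In the other 14 pairs the coefficient was 0.256 to 0.603, and 2099 to 6266 genes differed by that much. The difference between puro 1 and puro 3 was still over sampling noise, with a median chi-square of 1.25 over 12976 genes. This cannot tell 2 cultures from 2 libraries of 1 culture, and the labels do not say which they are. The main test kept them as separate samples, so if they are 1 culture, its p-values count that culture as 2. The comparison was also run with their counts summed to 1 sample.

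**Figure D1:**
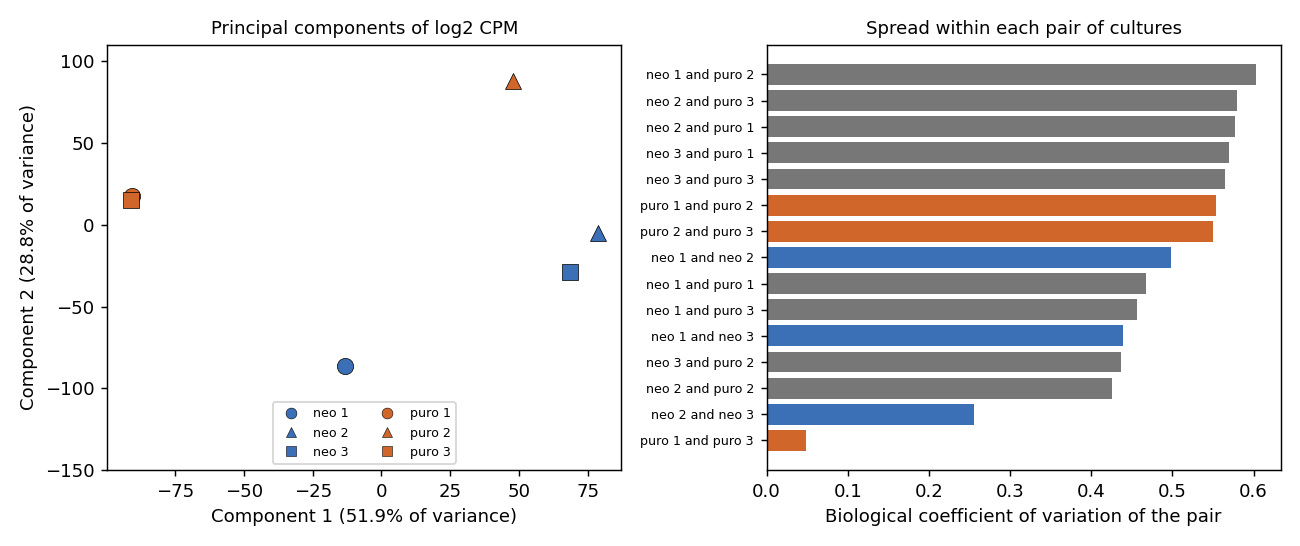
Left, the 6 cultures by the first 2 principal components of log2 CPM, with the share of the variance on each axis. Right, the biological coefficient of variation of each pair of cultures, with pairs within neo in blue, pairs within puro in orange and mixed pairs in grey. Puro 1 and puro 3 lie on each other at 0.0489, whereas puro 2 lies near neo 2 and neo 3 on the first component.

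The first principal component held 51.9% of the variance and set puro 1 and puro 3 (-90.5 and -91.1) against neo 2, neo 3 and puro 2 (78.6, 68.5 and 47.7), with neo 1 between them at -13.2. The second component held 28.8% of the variance and set every puro culture above every neo culture. Puro 1 to 3 were at 17.3, 87.8 and 15.2 on it, and neo 1 to 3 at -86.3, -4.8 and -29.2. Genes of the cell cycle followed the order on the first component. Their summed level over 26 tested genes was 2210, 5230 and 4580 CPM in neo 1 to 3 and 1420, 4450 and 1460 CPM in puro 1 to 3, so that puro 2 was within the neo range and puro 1 and 3 were below it. The 18 ribosome biogenesis genes did likewise, with 1030 and 1070 CPM in puro 1 and puro 3 and 3240 CPM in puro 2, against 1300 to 4740 CPM in neo cultures. No gene of either list was called (median log2 fold change -0.92 and -0.74), and how far this order of the cultures enters the comparison was not tested.

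Of 8 tested genes annotated to the Y chromosome, 5 were lower in puro 2 than in any of the other 5 cultures and 2 were higher. Ddx3y, an RNA helicase gene, was at 97, 96.9 and 80 CPM in neo 1 to 3 and at 107, 0.0731 and 112 CPM in puro 1 to 3. Eif2s3y, a translation initiation factor gene, was at 65.3 to 84 CPM in those 5 cultures and at 0 in puro 2. Kdm5d and Uty, both histone demethylase genes, were at 0 and 0.122 CPM in puro 2, against 44.1 to 78 and 182 to 288 CPM. Xist, the RNA that silences an X chromosome in female cells, was listed at 0 in all 6 cultures, which sets no limit on its RNA, since genes that every cell uses were also listed at 0. The labels give no sex for the donor mice. Gm47283 and Mid1-ps1, the 2 that were highest in puro 2, were at 456 and 7.29 CPM there, against 84.1 to 311 and 1.05 to 4.54 CPM. None of the 8 was called.

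The markers that the study names for the leukemia cells were checked for each group. Kit, the SCF receptor gene, was at 155, 54.4 and 103 CPM in neo 1 to 3 and at 62.9, 88.4 and 63.6 CPM in puro 1 to 3. Fcgr3, which encodes CD16, was at 96.4, 72.6 and 62.8 CPM in neo and 154, 110 and 166 CPM in puro cultures. Ly6g, a Gr-1 gene, was at 4.39 to 16.4 CPM in neo and 4.53 to 42.3 CPM in puro cultures, so the groups overlapped. Itgam, which encodes CD11b, was listed with 0 to 3 counts in neo and 0 to 6 counts in puro libraries and was not tested. Rpl13 and G6pdx, which every cell uses, were also listed at 0 in all 6 libraries, so such low counts cannot be read as absent RNA. Cd3e, a T-cell gene, had 1 count in puro 3 and 0 in the other 5 libraries. None of these genes was called.

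Of the 16503 genes, 144 were called, 0.873% of those tested, at a Benjamini-Hochberg adjusted p under 0.05 in edgeR's quasi-likelihood test. Of these, 93 were higher in puro (0.564%) and 51 lower (0.309%), and 132 code for protein. In all 144 the neo and puro values did not overlap, which held for 3255 of all genes tested (19.7%). An unadjusted p under 0.05 was found for 2259 genes (13.7%). Changes were large, with a median absolute log2 fold change of 3.54, rises of 0.97 to 9.25 and falls of -1.09 to -10.36. The median over all genes tested was -0.02.

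Puro 2 lay on the same side of the neo mean as puro 1 and puro 3 in 144 of the 144 called genes. Over all genes tested, called genes included, it did so in 49.8%. The called genes were chosen by this contrast, so this describes them. For the genes called higher, the median difference from the neo mean was 3.2 on the log2 scale in puro 2 and 3.48 in the mean of puro 1 and 3. For those called lower it was -3.42 and -3.26.

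**Figure D2:**
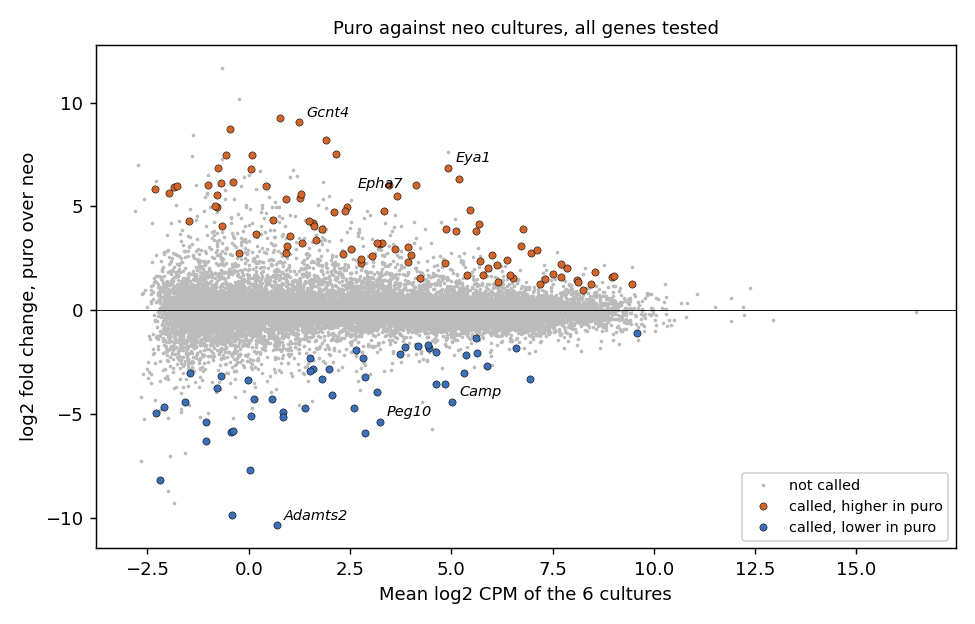
Each point is 1 of the 16503 genes tested, with the mean log2 CPM of the 6 cultures on the horizontal axis and the log2 fold change of puro over neo on the vertical axis. The 93 genes called higher in puro are orange, the 51 called lower are blue, and the rest are grey, including many with changes as large as those of called genes.

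The number of calls rested on which libraries were counted. With puro 1 and puro 3 summed to 1 sample, 4 genes passed the threshold (0.0242%), while 1336 passed an unadjusted 0.05. Of 39 called genes given by name here, 36 were not called in that fit, with the same direction in all 36 and adjusted p of 0.0644 to 0.204, and 3 (Epha7, Gcnt4 and Adamts2) were called. Without puro 2 the count was 990, without neo 1 it was 41, without puro 1 it was 5 and without puro 3 it was 3. In the fit without puro 2 the puro group was the near-identical pair of puro 1 and puro 3 alone. Without neo 2 or without neo 3, edgeR called 0 genes, with 1900 and 1582 at an unadjusted p under 0.05, and no other tool was run on those 5 libraries. The DESeq2 Wald test called 1326 genes in the 6 cultures and 606 with puro 1 and 3 summed, and both sets held all 144.

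Of the 4 genes called with puro 1 and puro 3 summed, 3 are given here, Epha7, Gcnt4 and Adamts2. Epha7 encodes a receptor tyrosine kinase for ephrin A ligands, Gcnt4 an enzyme that branches O-linked sugar chains, and Adamts2 a protease that trims procollagen. Because these changes remained when the near-identical pair was counted once, the sequence around the start of each gene that a RefSeq entry (GRCm38.p6) matched is printed. Each runs from 250 bases before to 50 after the annotated start, on the plus strand, with the CG dinucleotides, the sites that DNA methylation uses, in capitals.

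Epha7, chr4:28812881-28813180: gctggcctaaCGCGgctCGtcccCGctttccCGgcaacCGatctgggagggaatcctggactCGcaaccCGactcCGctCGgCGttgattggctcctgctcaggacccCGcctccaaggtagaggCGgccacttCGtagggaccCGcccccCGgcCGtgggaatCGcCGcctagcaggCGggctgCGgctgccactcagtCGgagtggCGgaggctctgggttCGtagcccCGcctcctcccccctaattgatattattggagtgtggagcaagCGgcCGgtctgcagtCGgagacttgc

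Gcnt4, chr13:96924463-96924762: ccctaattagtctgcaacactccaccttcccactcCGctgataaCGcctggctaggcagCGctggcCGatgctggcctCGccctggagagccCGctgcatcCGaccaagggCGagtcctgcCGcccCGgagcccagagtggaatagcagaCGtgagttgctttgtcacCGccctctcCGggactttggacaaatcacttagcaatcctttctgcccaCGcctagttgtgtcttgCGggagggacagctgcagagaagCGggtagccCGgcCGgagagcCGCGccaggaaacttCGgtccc

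Adamts2, chr11:50601835-50602134: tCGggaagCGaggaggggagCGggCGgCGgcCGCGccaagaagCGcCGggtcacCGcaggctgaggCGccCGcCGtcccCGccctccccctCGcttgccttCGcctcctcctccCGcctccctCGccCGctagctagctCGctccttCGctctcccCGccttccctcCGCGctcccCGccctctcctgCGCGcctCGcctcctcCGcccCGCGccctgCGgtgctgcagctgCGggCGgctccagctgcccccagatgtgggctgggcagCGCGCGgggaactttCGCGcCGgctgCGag

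The stretch of Epha7 held 28 CG dinucleotides, that of Gcnt4 21 and that of Adamts2 41, and all 3 were above the median of 19 over the promoters of 11455 tested genes with an entry. The 71 promoters of genes called higher in puro had a median of 18, and the 35 of genes called lower had a median of 14. The letters TGACAG, the core site of MEIS and TGIF proteins, were searched on both strands and stood in 9 of the 71 (12.7%) and 6 of the 35 (17.1%), against 17.1% for all tested genes. The letters TGATTNAT, read by pairs of PBX and HOX proteins, were in 1 of 71 (1.41%) and 0 of 35, against 1.47%. Neither was found in the 3 stretches above.

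Epha7 (ENSMUSG00000028289, chromosome 4, 28813131 to 28967499) was at 1.3, 2.14 and 3.11 CPM in neo 1 to 3 and at 133, 169 and 130 CPM in puro 1 to 3. Every puro culture was over 100 CPM and every neo culture under 5 CPM. The log2 fold change was 6.04 (SE 0.41, adjusted p 6.94e-03), and 6.13 with puro 1 and 3 summed (adjusted p 0.0472). On a scale common to all 14 samples, WT HSPCs held 1.28 to 3.19 CPM, so it was the puro cultures that stood apart from normal progenitors.

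Gcnt4 (ENSMUSG00000091387, chromosome 13, 96924689 to 96950906) had 3, 4 and 3 counts in neo 1 to 3 and 1127, 3124 and 1302 counts in puro 1 to 3. The ratio of the summed counts was 568 (95% exact interval 309 to 1190, counting error only), with an adjusted p of 6.94e-03. Adamts2 (ENSMUSG00000036545, chromosome 11, 50602084 to 50807573) went the other way, with 899, 1630 and 2021 counts in neo 1 to 3 and 0, 2 and 1 counts in puro 1 to 3. Its ratio of neo to puro was 1480 (95% exact interval 507 to 7190, counting error only), with an adjusted p of 6.94e-03. For both genes the low group was at the counting floor in every library.

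Among known targets of MLL fusions, 2 of 21 tested genes were called, both higher in puro, and 17 of 21 had a log2 fold change above 0. The median was 0.75, against -0.02 over all genes tested. Over all genes tested, 0.873% were called and 47.9% had a log2 fold change above 0, the shares against which the counts of every list here stand. The lists were chosen with earlier results of these data known, so their counts describe them and test nothing. Eya1, which encodes a phosphatase that works as a partner of homeodomain transcription factors, was at 4.61, 5.03 and 0.522 CPM in neo and 320, 528 and 332 CPM in puro cultures. On the log2 scale the difference was 6.86 (SE 0.91, adjusted p 0.031), the largest among called genes that averaged at least 3 on the log2 CPM scale. It was not called with puro 1 and 3 summed (7.01, adjusted p 0.119). Eya1 (ENSMUSG00000025932) lies on chromosome 1 at 14168954 to 14310235.

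Pbx3 (ENSMUSG00000038718, chromosome 2, 34171457 to 34373142), a HOX cofactor, was at 79.8, 94.2 and 121 CPM in neo and 370, 644 and 376 CPM in puro cultures. Its rise was 2.23 on the log2 scale (SE 0.3, adjusted p 0.0341). WT HSPCs held 6.04 to 10.8 CPM, less than any culture of either vector on the common scale.

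Meis1, the other HOX cofactor of MLL leukemia, was at 167, 164 and 319 CPM in neo and 1230, 542 and 1220 CPM in puro cultures. The groups did not overlap, but the log2 fold change of 2.2 (SE 0.43) had an adjusted p of 0.0801 and was not called. Meis1 was called in 7 of 23 other settings, among them DESeq2. Another of the 7 was the fit without puro 2, whose puro group was the near-identical pair alone. Mef2c, a transcription factor of myelomonocytic leukemia, was at 16.9, 69.7 and 34.2 against 112, 302 and 123 CPM (log2 fold change 2.15, adjusted p 0.195). Hoxa9, a central target of the fusion, was at 206, 172 and 209 against 177, 152 and 186 CPM. Its log2 fold change of -0.19 had a 95% interval of -0.62 to 0.25, so changes beyond that range were not seen.

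Of 7 tested HOXA cluster genes none was called, and the summed level was 302 to 378 CPM in neo and 315 to 458 CPM in puro cultures. Hoxa10 had the smallest adjusted p of the cluster, 0.161, with 68.8, 67.3 and 91.8 CPM in neo and 149, 110 and 159 CPM in puro cultures. Outside HOXA, 2 of 17 genes passed the count filter. Hoxb3 was at 0.74 to 1.81 CPM in neo, at 27.3 and 21.5 CPM in puro 1 and 3, and at 1.05 CPM in puro 2, inside the neo range. Hoxb4 was likewise high in puro 1 and 3 only, with 17.9, 2.14 and 15.8 CPM in puro 1 to 3 and 3.75 to 5.55 CPM in neo.

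Of 8 tested genes of the Eya and Dach families and their partners, which form a transcription network, only Eya1 was called. Its relative Eya2 was at 0.817 to 6.52 CPM in neo and 0.634 to 1.48 CPM in puro cultures (log2 fold change -1.24, adjusted p 0.622).

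The genes behind the fusion and its cofactors were not called in any of 13 cases. Of the 13, 3 had a log2 fold change above 0 (median -0.23, range -2.07 to 0.39), and the lowest adjusted p was 0.0752. Their summed level was 2160 to 2260 CPM in neo and 1700 to 1890 CPM in puro cultures, without overlap. Kmt2a was at 379, 369 and 391 CPM in neo and 378, 221 and 357 CPM in puro cultures, and Mllt3 was at 41.8, 58.3 and 47.4 against 40.4, 41.1 and 38.8 CPM. Their log2 fold changes of -0.25 and -0.29 had 95% intervals of -0.82 to 0.31 and -0.79 to 0.2. Reads of the fusion insert and of the endogenous genes cannot be told apart in these counts.

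**Figure D3:**
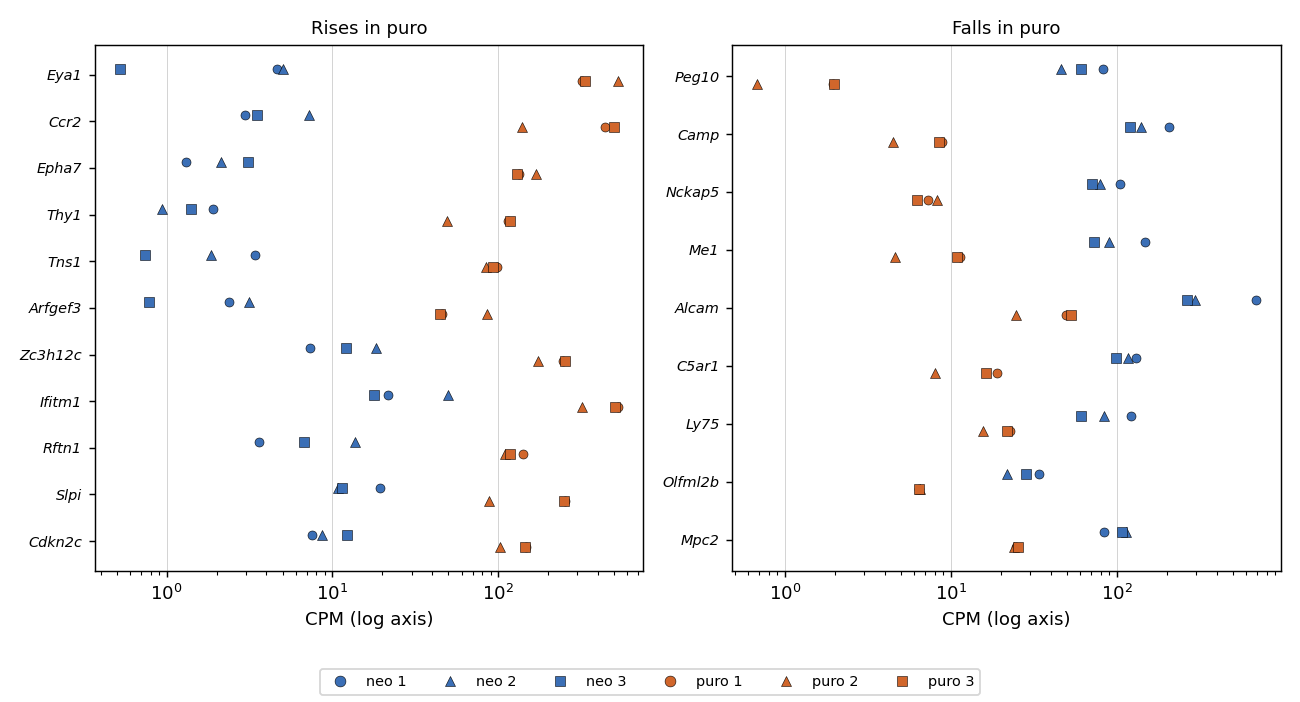
CPM on a log axis for 11 genes with large rises (left) and 9 with large falls (right) in puro among called genes averaging 3 or more in log2 CPM, with 1 symbol per culture, neo in blue and puro in orange. No blue symbol overlaps the orange symbols of its gene, and the puro 1 and puro 3 symbols lie together while puro 2 lies apart for genes such as Ccr2 and Slpi.

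Single genes of the cell surface moved in either direction, with falls of Alcam, C5ar1 and Ly75 given below. Ccr2 (ENSMUSG00000049103, chromosome 9, 124101950 to 124113557), the chemokine receptor that draws monocytes out of the marrow, was at 2.98, 7.27 and 3.49 CPM in neo and 440, 139 and 500 CPM in puro cultures. Puro 2 was the lowest puro culture and still above every neo culture. The difference on the log2 scale was 6.3 (SE 0.68, adjusted p 0.0261), and with puro 1 and 3 summed it was 6.09 with an adjusted p of 0.093. Of 12 tested chemokine receptors it was the only called gene, and Ccr1 was at 10.8 to 31.6 CPM in neo and 73.5, 10.8 and 78.4 CPM in puro 1 to 3.

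Thy1 (ENSMUSG00000032011, chromosome 9, 44043384 to 44048579), a surface marker of stem cells and T cells, was at 1.91, 0.944 and 1.4 CPM in neo and 114, 49 and 118 CPM in puro cultures. Its rise was 6.04 on the log2 scale (SE 0.51, adjusted p 0.0125). No other gene was called of 17 tested stem and early progenitor genes, of which 13 had a log2 fold change above 0 (median 2.11). Cd34, a progenitor surface marker, was at 0.051 to 0.817 CPM in neo and 1.72 to 2.02 CPM in puro cultures and was not called (adjusted p 0.304). Gata2, a stem cell transcription factor, was at 0.638 to 3.42 against 10.4 to 13 CPM (adjusted p 0.141).

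Thy1 was also the only called gene of 7 tested T- and NK-cell genes, and no defining marker of those cells was called with it. Lck, a T-cell kinase, was at 2.21 to 2.88 CPM in neo and 2.96 to 5.48 CPM in puro cultures, and Cd3d was at 0.613 to 1.94 against 0.269 to 0.857 CPM. Pecam1 (ENSMUSG00000020717, chromosome 11, 106654217 to 106750628), an adhesion molecule of endothelium and of myeloid cells, was at 25.4, 26.1 and 17.8 CPM in neo and 144, 83.9 and 135 CPM in puro cultures. The difference on the log2 scale was 2.39 (SE 0.3, adjusted p 0.0284). The 7 tested stroma and endothelium genes summed to 29 to 49.1 CPM in neo and 94.7 to 177 CPM in puro cultures, and most of the puro sum came from Pecam1. Vcam1, an adhesion molecule that binds integrins, was at 1.71 to 2.17 against 5.95 to 11.1 CPM (log2 fold change 2.24, adjusted p 0.0551).

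Of 21 adhesion and cytoskeleton genes 2 were called, both higher in puro. Of these, Tns1 (ENSMUSG00000055322, chromosome 1, 73910231 to 74124449), which encodes a protein that ties integrins to actin, was at 3.41, 1.86 and 0.736 CPM in neo and 98.5, 84.8 and 92.4 CPM in puro cultures. The log2 fold change was 5.52 (SE 0.59, adjusted p 0.0252). Its relative Tns2 was at 3.73 to 12.6 against 5.65 to 11.8 CPM, with overlapping groups. WT HSPCs held 132 to 298 CPM of Tns1, more than any culture of either vector on the common scale.

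Epha7 was the only called gene of 16 tested Eph receptors and ephrins, whose median log2 fold change was -0.06. Epha2 was at 7.34, 3.11 and 2.49 CPM in neo and 0.673, 0.317 and 0.807 CPM in puro cultures, a log2 fold change of -2.84 (adjusted p 0.105). Epha1 was at 5.87 to 26.1 against 7.77 to 33.1 CPM. The summed level of the family was 21.3 to 52 CPM in neo and 179 to 186 CPM in puro cultures, and most of the puro sum came from Epha7.

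Of 15 tested dendritic cell and MHC class II genes 1 was called, H2-Aa, an MHC class II chain, and 12 had a log2 fold change above 0 (median 1.11). H2-Aa had 2 counts in all neo libraries together and 141 in all puro libraries, a ratio of 72.1 (95% exact interval 19.6 to 601, counting error only, adjusted p 0.0494). At 1.02 to 1.41 CPM in puro cultures it was far under the 25.8 to 56.9 CPM of WT HSPCs. H2-Ab1, its partner chain, was at 25.7 and 26.7 CPM in puro 1 and 3 but at 0.585 CPM in puro 2, inside the neo range of 0.0237 to 1.51 CPM. Cd74, the class II chaperone, was at 1.55 to 6.63 against 1.87 to 3.7 CPM, and Itgax, a dendritic cell integrin, was at 0.641 to 14.1 CPM in neo cultures, a range that held all 3 puro cultures.

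Genes near H2-Aa were looked at after their values had been seen. Between 34238903 and 37274484 on chromosome 17, from H2-Ob to H2-M3, 115 genes were tested, of which 7 were called higher and 1 lower. The gene called lower was Hspa1b, a heat shock chaperone with a close copy beside it, at 8.81 to 30 CPM in neo and 0.707 to 1.77 CPM in puro cultures. All 7 called higher were H2 genes, of 14 H2 genes tested there. The ends of the stretch are called genes, and 6 of the 14 had under 10 counts in every neo library and so passed the filter through puro, which means that this count describes the stretch and supports nothing. H2-Ob, a chain that restrains class II peptide loading, was at 0.0255 to 0.0764 CPM in neo and 7.9 to 13.2 CPM in puro cultures. H2-M3, which presents formylated peptides, was at 1.94 to 3.78 against 13.6 to 16.5 CPM (log2 fold change 2.28). The other 4, H2-Q4, H2-Q5, H2-Q6 and H2-Q7, are close copies of each other whose reads the counting could split, so their single values are uncertain. H2-Q7 was at 0 to 0.128 CPM in neo and 5.34 to 12 CPM in puro cultures, against 46.5 to 116 CPM in WT HSPCs. Just outside this stretch Psmb8, an immunoproteasome gene, was at 2.32 to 4.13 against 15.3 to 17.5 CPM (log2 fold change 2.48).

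The 19 tested interferon-stimulated genes held no called gene, with a median log2 fold change of 1.08, 15 of 19 above 0 and a lowest adjusted p of 0.0521. Mx2, an antiviral GTPase gene, was at 0 to 0.0237 CPM in neo and 5.57, 0.512 and 5.62 CPM in puro 1 to 3, and Mx1 was at 0 to 0.051 against 4.92, 0.414 and 4.84 CPM. Isg15 was at 0.23 to 0.357 against 1.05, 0.317 and 1.21 CPM, and Ifit2 was at 3.62 to 7.68 against 4.57 to 6.97 CPM. Ifitm1 (ENSMUSG00000025491, chromosome 7, 140967221 to 140969825), an interferon-induced membrane protein gene, was not in that list and rose. It was at 21.6, 49.7 and 17.7 CPM in neo and 525, 320 and 508 CPM in puro cultures (log2 fold change 3.93, SE 0.48, adjusted p 0.0284).

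Of 22 tested genes of late neutrophil granules, 2 were called, both lower in puro, with a median over the list of -1.06 and 6 of 22 above 0. Camp (ENSMUSG00000038357, chromosome 9, 109847379 to 109849617), the antimicrobial peptide cathelicidin, was at 205, 139 and 120 CPM in neo and 8.88, 4.51 and 8.47 CPM in puro cultures. Its log2 fold change was -4.41 (SE 0.39, adjusted p 0.014), and with puro 1 and 3 summed it was -4.53 with an adjusted p of 0.0858. Fcnb (ENSMUSG00000026835, chromosome 2, 28076378 to 28084885), a ficolin of developing neutrophils, was at 9.66, 7.68 and 6.41 against 1.02, 0.926 and 1.39 CPM (log2 fold change -2.83, SE 0.37, adjusted p 0.029).

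The summed level of all 22 was 7800, 6760 and 4490 CPM in neo 1 to 3 and 4150, 554 and 4210 CPM in puro 1 to 3, so that every neo sum was above every puro sum and puro 2 was far below the rest. Ltf, which encodes lactoferrin, was at 324, 185 and 52.6 CPM in neo and 66.8, 3.61 and 71.3 CPM in puro cultures. Ngp, a granule protein gene, was at 836 to 2720 CPM in neo and at 1090, 125 and 1140 CPM in puro 1 to 3. Neither was called (log2 fold change -1.99 and -1.01, adjusted p 0.503 and 0.651).

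Of 11 primary granule genes, which belong to an earlier stage, none was called. Mpo, the peroxidase of the primary granule, was at 156, 632 and 432 CPM in neo and 201, 772 and 216 CPM in puro cultures, and Elane, neutrophil elastase, was at 207, 440 and 649 against 656, 1330 and 701 CPM. Mpo was lowest in neo 1, puro 1 and puro 3, the cultures that also had the lowest summed level of cell cycle genes.

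C5ar1 (ENSMUSG00000049130, chromosome 7, 16246743 to 16259540), the receptor of the complement fragment C5a on mature myeloid cells, fell from 131, 117 and 98.2 CPM in neo to 19, 8.02 and 16.4 CPM in puro cultures. On the log2 scale the difference was -3 (SE 0.37, adjusted p 0.0283). Ly75, an endocytic receptor of dendritic cells, was at 121, 83.9 and 60.7 against 22.8, 15.7 and 21.7 CPM (log2 fold change -2.14, SE 0.32, adjusted p 0.0473). Slpi, an inhibitor of neutrophil proteases, rose from 19.3, 10.8 and 11.4 CPM to 251, 87.6 and 248 CPM (log2 fold change 3.82, SE 0.5, adjusted p 0.031).

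Among 20 monocyte and macrophage markers Ccr2 alone was called, with a median log2 fold change of 1.11 over the list and 16 of 20 above 0. The summed level was 994, 1760 and 931 CPM in neo 1 to 3 and 3920, 1640 and 3940 CPM in puro 1 to 3, so puro 2 lay within the neo range. Csf1r, the receptor of the macrophage growth factor M-CSF, was at 8, 8.81 and 3.66 CPM in neo and 95.8, 10.2 and 86.4 CPM in puro cultures. The log2 fold change of 3.23 (SE 0.84) had an adjusted p of 0.151.

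Of 19 myeloid transcription factors and 18 growth factor receptors, none was called. Of the factors 11 had a log2 fold change above 0 (median 0.14). Of the receptors 15 did (median 0.81, lowest adjusted p 0.0703). The receptors summed to 1050 to 1340 CPM in neo and 2480, 1220 and 2370 CPM in puro 1 to 3, so puro 2 lay within the neo range. Cebpa, the factor that opens the granulocyte and monocyte programs, was at 74.8, 42.7 and 47.5 CPM in neo and 175, 123 and 194 CPM in puro cultures. The groups did not overlap, and the log2 fold change of 1.58 (SE 0.3) had an adjusted p of 0.079. Cebpa was called in 7 of 23 other settings tried, among them DESeq2 and the replicate block, although the replicate numbers did not pair the cultures. Spi1, which encodes PU.1, was at 204 to 293 CPM in neo and 201 to 336 CPM in puro cultures, and Csf2ra, a GM-CSF receptor chain, was at 77.3 to 144 against 111 to 224 CPM.

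Other blood lineages gave no call. Mast cell, basophil and eosinophil genes (9 tested), erythroid genes (8), megakaryocyte genes (11) and B-cell genes (9) had median log2 fold changes of 1.38, 0.16, 0.48 and -0.55. Ms4a2, an IgE receptor chain, was at 2.34 to 3.3 CPM in neo and 2.96 to 3.95 CPM in puro cultures. Klf1, an erythroid transcription factor, was at 0.842 to 1.96 against 0.609 to 2.31 CPM. Itga2b, the platelet integrin, was at 2.76 to 13.9 against 3.14 to 12.2 CPM, and Cd79a, a part of the B-cell receptor, was at 1.79 to 5.53 against 1.12 to 3.28 CPM.

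Imprinted growth genes, of which only the copy from 1 parent is active, gave 2 called genes of 13 tested, both lower in puro. Peg10 (ENSMUSG00000092035, chromosome 6, 4747306 to 4760517), a gene derived from a retrotransposon, was at 82.5, 46 and 60.5 CPM in neo and 1.94, 0.682 and 1.99 CPM in puro cultures. The difference on the log2 scale was -5.36 (SE 0.52, adjusted p 0.0206), and with puro 1 and 3 summed it was -5.53 with an adjusted p of 0.102. WT HSPCs held 1.43 to 3.19 CPM, so the neo cultures stood apart. Its imprinted neighbour Sgce was at 5.41 to 10.9 CPM in neo and 7.53, 0.731 and 7.79 CPM in puro 1 to 3 and was not called (adjusted p 0.84).

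Cdkn1c (ENSMUSG00000037664, chromosome 7, 143458339 to 143461050), the imprinted inhibitor p57 of cyclin-dependent kinases, was at 6.8, 8.32 and 8.33 CPM in neo and 1.4, 0.658 and 1.06 CPM in puro cultures. Its log2 fold change was -2.91 (SE 0.41, adjusted p 0.0354). Cdkn2c (ENSMUSG00000028551, chromosome 4, 109660876 to 109667189), the inhibitor p18 of CDK4 and CDK6, went the other way. It was at 7.49, 8.7 and 12.2 CPM in neo and 147, 103 and 145 CPM in puro cultures (log2 fold change 3.8, SE 0.3, adjusted p 8.61e-03). It was the only called gene among 19 p53 targets and CDK inhibitors. Cdkn1a, which encodes p21, was at 133 to 361 against 92.1 to 211 CPM, and Mdm2, the brake on p53, was at 195 to 250 against 140 to 151 CPM (log2 fold change -0.56, adjusted p 0.242).

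Me1 (ENSMUSG00000032418, chromosome 9, 86581371 to 86695953), the cytosolic malic enzyme that makes NADPH, was at 148, 89.7 and 72.9 CPM in neo and 11.3, 4.63 and 10.9 CPM in puro cultures. The log2 fold change was -3.53 (SE 0.47, adjusted p 0.031), and it was the only called gene of 10 tested NADPH-producing enzymes. Me2, its mitochondrial relative, was at 43.4 to 147 against 38.5 to 117 CPM. Mpc2 (ENSMUSG00000026568, chromosome 1, 165460637 to 165481214), a subunit of the mitochondrial pyruvate carrier, was at 83.5, 113 and 108 CPM in neo and 24.6, 23.9 and 25.4 CPM in puro cultures (log2 fold change -2.04, SE 0.21, adjusted p 0.0208).

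Of 21 tested genes of fatty acid and cholesterol synthesis none was called, with a median log2 fold change of 0.04. Srebf1 and Srebf2, their master regulators, both had log2 fold changes of 0.06. In some alternatives, given in the closing section, these turned sign.

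The remaining large changes fell in genes of varied function. Zc3h12c, which encodes an RNA-degrading zinc finger protein, was at 7.34, 18.4 and 12 CPM in neo and 247, 174 and 253 CPM in puro cultures (log2 fold change 4.16, SE 0.41, adjusted p 0.0206). Rftn1, a lipid raft protein gene, was at 3.59, 13.6 and 6.74 against 140, 109 and 117 CPM (log2 fold change 3.93, SE 0.52, adjusted p 0.031). Arfgef3, a gene of the ARF guanine nucleotide exchange family, was at 2.39, 3.14 and 0.784 against 45.7, 84.9 and 44.2 CPM (log2 fold change 4.79, SE 0.61, adjusted p 0.029). In all 3 every puro culture was at least several times the highest neo culture.

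Alcam, an adhesion molecule that binds CD6, fell from 685, 296 and 266 CPM in neo to 49.4, 24.7 and 52.9 CPM in puro cultures (log2 fold change -3.3, SE 0.5, adjusted p 0.0478). Nckap5 fell from 105, 78.7 and 70.8 CPM to 7.29, 8.31 and 6.23 CPM (log2 fold change -3.54, SE 0.26, adjusted p 6.94e-03). WT HSPCs held 5.22 to 20.2 CPM of Alcam and 0.32 to 0.568 CPM of Nckap5, less than the neo cultures in each case. Olfml2b, a secreted matrix protein gene, was at 34, 21.9 and 28.2 CPM in neo and 6.43, 6.53 and 6.41 CPM in puro cultures (log2 fold change -2.12, adjusted p 0.0271).

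Some called genes lay side by side in the genome, which was noticed after their values were seen. Slfn8 and Slfn9, of the Schlafen family that is induced in immune cells, were at 0.664 to 1.02 and 0.178 to 0.485 CPM in neo and at 4.07 to 9.74 and 9.85 to 33.6 CPM in puro cultures, and as close relatives they may share reads. Faf1, a FAS-binding protein gene next to Cdkn2c, was at 249, 321 and 295 CPM in neo and 952, 739 and 968 CPM in puro cultures (log2 fold change 1.62, SE 0.2, adjusted p 0.0271). Nme6, a nucleoside diphosphate kinase family gene beside Camp, was at 34.8, 32.9 and 32.2 against 8.53, 12.3 and 9 CPM (log2 fold change -1.74, SE 0.24, adjusted p 0.0337). In each pair both genes were called in the same direction.

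**Figure D4:**
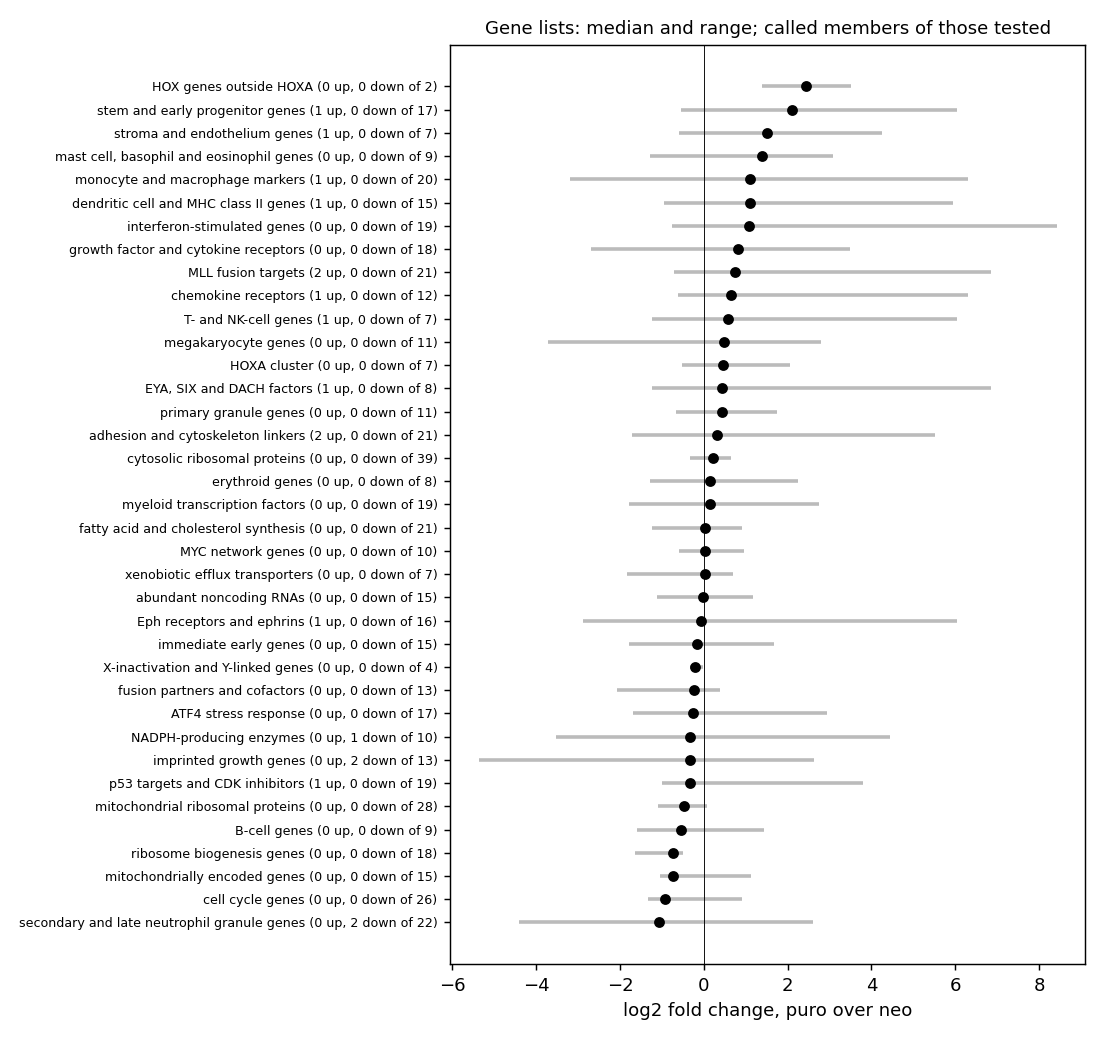
For each of 37 gene lists, the median (black point) and the range (grey bar) of the log2 fold change of puro over neo over its tested members, with the number called in each direction in brackets. Most bars cross 0, and no list has more than 2 called members.

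The housekeeping programs gave no called gene. The 39 tested cytosolic ribosomal protein genes had a median log2 fold change of 0.23 and a range of -0.33 to 0.64, and 36 of them were above 0. Rplp0 was at 799 to 1190 CPM in neo and 986 to 1030 CPM in puro cultures (log2 fold change 0.01, 95% interval -0.44 to 0.46). The GC correction turned Rplp0 and Rplp1 to below 0. The 28 mitochondrial ribosomal protein genes had a median of -0.48, with Mrpl1 at 57.7 to 77.7 against 65.2 to 82.2 CPM and Mrpl3 at 12.8 to 34.7 against 11.8 to 27.9 CPM.

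The 15 mitochondrially encoded genes had a median of -0.74, and 5 had an unadjusted p under 0.05, all lower in puro. The subunit gene mt-Nd2 of respiratory complex I was at 647, 536 and 623 CPM in neo and 224, 395 and 296 CPM in puro cultures (log2 fold change -0.98, adjusted p 0.141). The groups did not overlap, and the gene was called in DESeq2 and without puro 2, where the puro group was the near-identical pair alone.

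Efflux transporters, which pump drugs out of cells, were not called in any of 7 cases. Abcg2 was at 9.2, 42.2 and 35.6 CPM in neo and 7.83, 9.58 and 7.29 CPM in puro cultures (log2 fold change -1.82, adjusted p 0.21). Abcc1 was at 302 to 330 against 283 to 364 CPM, with a 95% interval of the log2 fold change of -0.39 to 0.43. The ATF4 stress response held no called gene of 17, with Atf4 at 210 to 318 against 146 to 359 CPM and Ddit3 at 16.5 to 70.4 against 24.5 to 30.6 CPM.

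Regulators of growth were also without calls. Myc was at 115, 175 and 268 CPM in neo and 72.2, 216 and 80 CPM in puro cultures, and Max, its partner, was at 58.5 to 83.2 against 68.1 to 83.9 CPM. Mki67, a proliferation marker, was at 553 to 1110 CPM in neo and at 236, 931 and 247 CPM in puro 1 to 3, and Top2a was at 272 to 553 against 126, 582 and 133 CPM. Both were called without puro 2, where the puro group was the near-identical pair of puro 1 and puro 3 alone. Npm1 and Ncl, nucleolar proteins of ribosome assembly, were at 236 to 855 against 242 to 632 CPM and 375 to 1730 against 196 to 796 CPM.

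Immediate early genes, which rise with handling of cells, and abundant noncoding RNAs gave no call among 15 and 15 tested. Fos was at 28.3 to 82.2 CPM in neo and 24.6 to 54.4 CPM in puro cultures, and Fosb at 8.75 to 80.4 against 24.9 to 52.5 CPM. Malat1, a nuclear noncoding RNA, was at 2500 to 6410 against 3450 to 11700 CPM. Gm26917, a noncoding RNA gene that took the most counts, was at 92200 to 100000 CPM in neo and 72400 to 106000 CPM in puro cultures.

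The level of the genes of a chromosome was compared between cultures for genes averaging 3 or more in log2 CPM. For 554 genes of chromosome 1, the median log2 deviation from the median of the 6 cultures was 0.41 in neo 3, and 78.5% of them were above 0 there. In neo 3 the other autosomes had medians of -0.03 to 0.11, and chromosome 1 had -0.14 to 0.11 in the other 5 cultures. In each of 10 windows of 20 Mb along chromosome 1, with 16 to 92 genes each, the median in neo 3 was 0.28 to 0.6. The median was above 0 in every window in neo 3 and also in neo 2, where it was 0.05 to 0.28. In neo 2, however, the other autosomes were above 0 as well, at 0.02 to 0.21, and chromosome 1 at 0.11 lay inside that range.

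**Figure D5:**
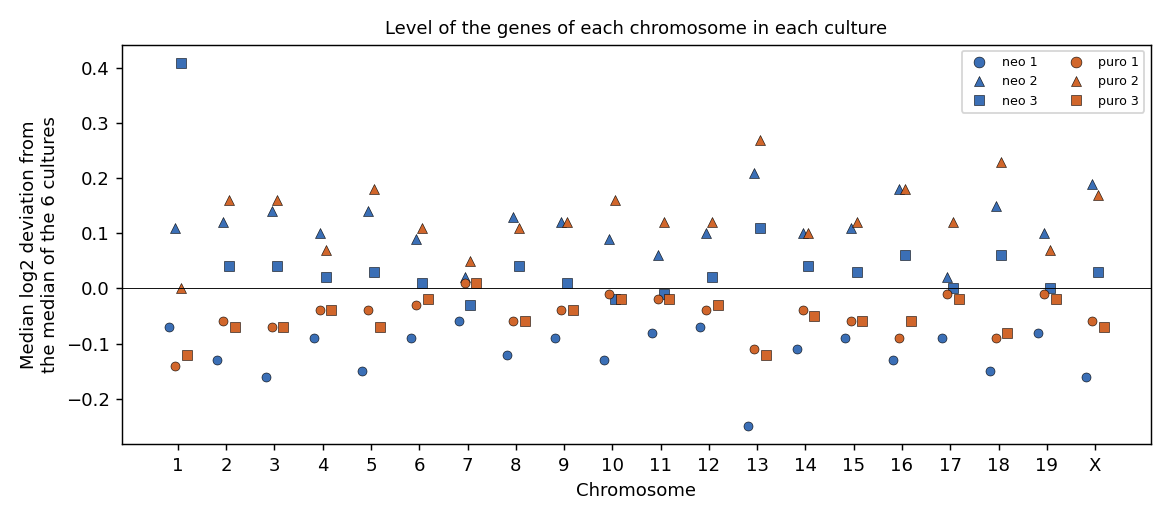
For each chromosome, the median log2 deviation of its genes (averaging 3 or more in log2 CPM) from the median of the 6 cultures, with 1 symbol per culture, neo in blue and puro in orange. Neo 3 stands at 0.41 on chromosome 1 and between -0.03 and 0.11 on chromosomes 2 to 19.

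Chromosome 1 was also lower in the comparison. The median log2 fold change of 1034 tested genes of chromosome 1 was -0.34. On log2(CPM + 1), for the genes averaging 3 or more, chromosome 1 was at -0.34 with all cultures and -0.21 without neo 3, and the other autosomes were at -0.11 to 0.04 and -0.1 to 0.03. Of the 144 called genes 11 lay on chromosome 1, or 1.06% of those tested there, 4 higher and 7 lower in puro. Eya1 and Tns1 were among the 4 and Nckap5, Mpc2 and Olfml2b among the 7, all with changes well beyond 0.41. Without chromosome 1 and Y genes, 130 genes were called.

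The called genes were set against the range of the 4 WT HSPC samples on the common scale. The neo cultures lay outside it more often than the puro cultures for the falls and only slightly more often for the rises, which was not tested. Of the 93 genes called higher in puro, 59 (63.4%) were below the WT HSPC range in all neo cultures and 16 (17.2%) above it. In all puro cultures, 42 (45.2%) of the 93 were above it and 28 (30.1%) below it. Of the 51 genes called lower in puro, 40 (78.4%) were above the WT HSPC range in all neo cultures and 1 (1.96%) below it. In all puro cultures, 17 (33.3%) of the 51 were below it and 11 (21.6%) above it. Over all genes tested, 28.1% were below and 31.2% above that range in neo, and 27.2% and 31.3% in puro cultures. The HSPCs carried no vector and, as far as the protocol says, were lysed without culture, so culture and the fusion gene cannot be told apart in this range. Since RNA came from bulk cultures, fewer cells of a type and less RNA per cell cannot be told apart for any of these genes.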

How the data were processed

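The files hold unnormalized counts per gene, which the authors made from RNA libraries depleted of ribosomal RNA. The submitters' processing notes list STAR 2.5.3e, featureCounts 1.6.0 and the build GRCm38, and the strand setting is not given in the sources used here. The 2 deposited tables were identical in all 735700 cells of the 14 samples. Values of 10 columns from another series were left aside.

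Identifiers were matched to the GENCODE M21 annotation (52403 of 52550), which gave the coordinates. The main test was the quasi-likelihood F test of edgeR 4.0.16 (R 4.3.3) on the 6 cultures, with TMM scaling, robust dispersions and no further term. A gene entered with 10 or more counts in 3 or more cultures, and a Benjamini-Hochberg adjusted p under 0.05 made a call. CPM of genes are scaled by TMM, the floors by total counts alone, and log2 CPM has a prior count of 2. The SE of a log2 fold change is its size over the square root of F. Levels of WT HSPCs were scaled over all 14 samples. The steps were also run on simulated counts with less spread between libraries than these cultures and no near-identical pair. That run therefore cannot show how the steps handle those features.

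The rule for naming took the 12 largest rises and the 12 largest falls among calls averaging 3 or more in log2 CPM, the first 2 tested and up to 6 called members of each of 37 gene lists, the genes called with puro 1 and 3 summed, and 5 markers of the model. Members, lists and rule were chosen with earlier results of these data known. Some genes within the rule are not reported. Named outside it, after their values were seen, were Mef2c, Hoxa10, H2-Ab1, H2-Ob, H2-M3, H2-Q4 to H2-Q7, Hspa1b, Psmb8, Mx1, Mx2, Ngp, Kdm5d, Uty, Slfn8, Slfn9, Faf1 and Nme6. Alternatives were RLE factors, total counts, DESeq2 1.42.0, limma-voom (limma 3.58.1), other filters and thresholds, all 14 samples, a GC correction (natural spline, 5 degrees of freedom), a replicate block, genes left out, puro 1 and 3 summed, and each replicate left out (genes with 10 counts in 2 cultures). Leaving out chromosome 1 and Y genes, and DESeq2 with puro 1 and 3 summed, were chosen after seeing the data.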

Additional observations from a re-analysis of the deposited data

How the results depend on the processing

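The number of called genes, 144 in the main test, was the result that depended most on the processing. It was 1326 in the DESeq2 Wald test, 606 in DESeq2 with puro 1 and 3 summed, 692 with all 14 samples in 1 fit, 221 with no filter on low counts, 268 with the GC correction and a replicate block, 13 at an adjusted p under 0.01 and 4 with puro 1 and 3 summed. Leaving out each replicate in turn gave 0 to 990, with 0 without neo 2 or neo 3 and 990 without puro 2. The cause was not tested. The count was between 101 and 185 with the other settings apart from the block. The share of calls higher in puro was 64.6% in the main test, 71.5% with the block and 60.6% in DESeq2.

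The replicate numbers did not pair the cultures, since same-numbered neo and puro cultures deviated from their group means with correlations across genes of 0.47, 0.405 and -0.337. Puro 3 went best with neo 1 (0.56). The replicate block gave 214 calls, of which 129 were among the 144.

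Of 114 genes run under each alternative, including those named after their values were seen, none of the 39 called turned sign, and 3 of them kept the call with puro 1 and 3 summed. Of the 75 not called, 23 turned sign somewhere. As log2 fold changes, Itgax was 0.11 in limma-voom, 0.02 with the block and 0.01 with the GC correction and block. Mpo was 0.31 with puro 1 and 3 summed and 0.27 in DESeq2 on those sums, where Abcc1 was -0.05, and Ifit2 was 0.03 with puro 1 and 3 summed. With the GC correction Srebf1 was -0.1, Srebf2 -0.06, Rplp0 -0.06 and Rplp1 -0.17, and with the block added they were -0.09, -0.15, -0.03 and -0.09, with Ddit3 at 0.01. Srebf2 was -0.01 with the block alone, and Rplp0 and Max were each -0.01 without chromosome 1 and Y genes. Kdm5d was 0.05 with total counts and 0.03 with the filter on a mean of 100 counts. Leaving out each replicate in turn turned the sign of more genes, with ranges of the log2 fold change of Abcc1 -0.06 to 0.1, Cd74 -0.75 to 0.45, Cd79a -0.94 to 0.07, Cdkn1a -0.72 to 0.07, Ddit3 -0.71 to 0.63, Ddx3y -0.77 to 0.26, Eif2s3y -0.73 to 0.28, Eya2 -1.67 to 0.47, Fosb -0.94 to 0.14, Gm26917 -0.25 to 0.04, Ifit2 -0.32 to 0.15, Itgax -1.47 to 1.68, Kdm5d -0.46 to 0.57, Max -0.11 to 0.11, Me2 -1.19 to 0.11, Mpo -0.97 to 0.43, Mrpl1 -0.05 to 0.18, Rplp0 -0.11 to 0.14, Rplp1 -0.15 to 0.2, Sgce -0.84 to 0.05, Srebf1 -0.17 to 0.28, Srebf2 -0.37 to 0.25 and Uty -0.53 to 0.46. The cause of these turns was not tested. CPM taken over total counts were compared for 40 levels only, the neo and puro group means of genes with large rises or falls. Of these 40 levels, 0 moved by over 1 SD. Summed levels, levels of single samples and those of the other named genes were not compared in this way.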
